A study of Mus musculus with 10 samples.

Results

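Topologically associating domains (TADs) are stretches of a chromosome whose DNA contacts itself more often than its surroundings, and the places where a TAD starts or ends are its boundaries. The boundaries described here are those that recurred in nearly every library of the study. They are the 1700 positions found in 9 or 10 of 10 libraries, out of 28587 merged positions in all. The starts and ends of all listed TADs were merged when they lay within 20 kb, taking the position held by most libraries first. Of the 1700, 838 were in all 10 libraries and 862 were in 9. They were selected on recurrence itself, so the number of libraries that hold them is a description and not a finding.

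The libraries came from mouse embryonic stem cells of the line ES-E14TG2a, grown without feeder cells on gelatin with LIF and inhibitors of GSK3b and MEK. Contacts were measured by exo-Hi-C, a form of Hi-C in which exonucleases remove linear DNA after proximity ligation. There were 5 genotypes with 2 libraries each: E1-KO, E2-KO and E3-KO, which lack 1 enhancer each, the double knockout E1&E3-dKO, and WT. The labels do not say where the enhancers lie, whether the libraries of a genotype came from separate cultures or clones, or which exonuclease mix each received, so a p-value here reflects the spread among these libraries, which may be technical.

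As background, boundaries in mammalian cells are commonly bound by the zinc finger protein CTCF, which halts the ring-shaped cohesin complex as it extrudes loops of DNA. Cohesin stopped at both ends of a TAD brings these ends together, and contacts across a boundary are rarer than contacts inside a TAD. Many boundaries are shared between cell types. Neither CTCF nor cohesin was measured in the files used here, and the lists name no genes, so the cell type could not be checked against markers. Positions are in the mouse build mm9. The gene and sequence tables at hand describe another build, GRCm38, so no gene and no sequence is assigned to a boundary.

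The libraries differed in what they listed. TADs numbered 2715 to 7962 per library, and the fewest were in E1-KO replicate 1 and the most in E2-KO replicate 1. Interactions, which are pairs of 10 kb bins in contact above expectation, numbered 466 to 6014. Total reads per library are not given, so depth is unknown. The listed pairs rested on at least 2 reads in E2-KO replicate 1 and on at least 3 in the other 9 libraries. The median number of reads per listed pair was 15 in E1-KO replicate 1, against 3 to 8 in the other 9. The median TAD was 90 kb long in E2-KO replicate 1, against 120 to 260 kb in the other 9. Titles of 4 libraries (both of E2-KO, E3-KO replicate 2 and WT replicate 1) begin with w326. What that prefix stands for is not stated, and values within each set of titles are given beside the pooled ones.

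Boundaries seen once far outnumbered the recurrent ones, but recurrence was not spread evenly. Of the merged positions 14534 were in 1 library and 5751 in 2, and the number fell to 677 for 7 libraries, then increased again to 776 for 8, 862 for 9 and 838 for 10. The positions in 5 to 8 libraries numbered 3173. Those in 1 to 4 libraries numbered 23714, and E2-KO replicate 1 held 11951 of them, against 1125 to 5488 in each other library. Just inside the limit, boundaries of 9 libraries had a median score of 1.78, and just outside it those of 8 libraries had 1.73. The score is the authors' value for each TAD, never under 1.5, and a boundary's score in a library is the mean over the TADs that start or end there.

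The positions of a recurrent boundary differed little between libraries, by at most 20 kb as the merging fixes. Of all records of a recurrent boundary in a library, 66.7% fell on exactly the same 10 kb position as the one held by most libraries, 27.1% were 10 kb away and 6.15% were 20 kb away. All 10 libraries put 47 of the 1700 on the same 10 kb position, among them 22.14 and 65.61 Mb of chromosome 13. Others of these lay at 20.25 Mb of chromosome 14 and at 19.69 Mb of chromosome 8. For 578 boundaries (34.0%) the most held position was shared by 5 libraries or fewer.

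The library with the most TADs held the fewest of the recurrent boundaries. E2-KO replicate 1 listed 1300 of them (76.5%), against 1588 to 1682 in the other 9 libraries. It was the one library without them for 400 of the 862 boundaries found in 9. E1&E3-dKO replicate 2 lacked 112 and E3-KO replicate 2 lacked 82, whereas E3-KO replicate 1 lacked 18 and WT replicate 1 lacked 20. By genotype, E1-KO held 1655 ± 18.4 (SD, n = 2), E2-KO 1475 ± 247, E3-KO 1650 ± 45.3, E1&E3-dKO 1618.5 ± 43.1 and WT 1670.5 ± 13.4. Where E2-KO replicate 1 lacked a boundary, the position lay inside one of its TADs in 65 cases and outside any TAD in 335. Recurrent boundaries made up 8.75% of all boundaries of that library, against 17.6% to 35.2% in the other 9.

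**Figure D1:**
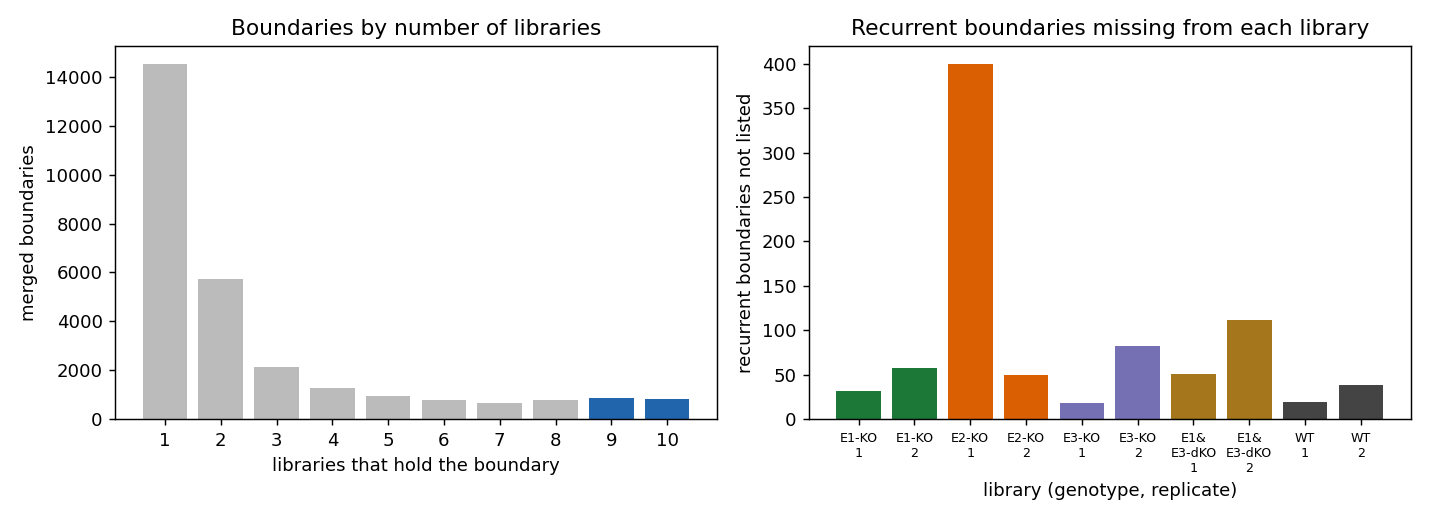
Left, number of merged boundaries (vertical) by the number of libraries that hold them (horizontal), with those in 9 or 10 libraries in blue. Right, number of the 1700 recurrent boundaries not listed in each library, where the bar of E2-KO replicate 1 stands at 400 and the other 9 at 18 to 112.

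The recurrent boundaries were on every autosome and on X, with none on Y, and their density differed between chromosomes. Over the whole span from the first to the last listed boundary of each chromosome there were 0.669 per Mb. Chromosome 11 had the highest density, with 134 boundaries and 1.13 per Mb, followed by chromosome 17 with 79 and 0.891 per Mb and chromosome 9 with 104 and 0.861 per Mb. Chromosome X had the lowest density, with 35 and 0.217 per Mb. Among autosomes the lowest was chromosome 7, with 75 and 0.506 per Mb, and chromosome 14 had 0.514 per Mb.

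Boundaries of other kinds were not scarce on X. All merged boundaries together were denser on X, with 16.3 per Mb, than on any other chromosome, where the values were 4.66 per Mb on Y and 9.12 to 12 per Mb on autosomes. Recurrent ones were 1.33% of the 2637 boundaries of X, against 6.42% of the 25941 on autosomes. Positions of 1 library were 39.4% of those on X, against 52.0% on autosomes, so boundaries of X were more often found in several libraries without reaching 9. The fewest boundaries on X were in the lists of E1-KO replicate 1 (319) and WT replicate 1 (391), and the most in E2-KO replicate 1 (987). The fewest TADs overall were likewise in E1-KO replicate 1 and the most in E2-KO replicate 1.

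**Figure D2:**
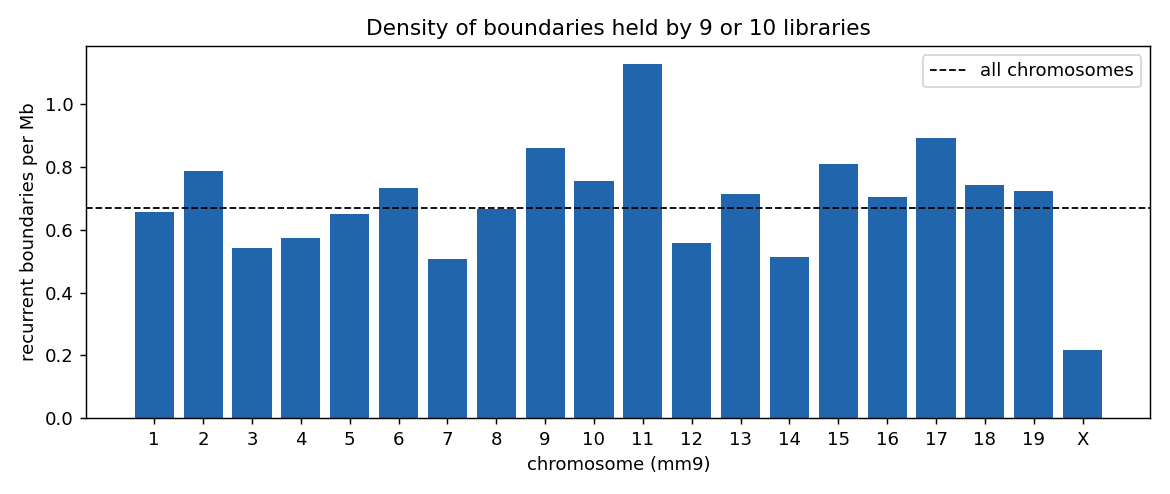
Boundaries held by 9 or 10 libraries per Mb (vertical, from 0) on each chromosome (horizontal), with a dashed line at the value over all chromosomes, 0.669. Chromosome 11 stands highest at 1.13 and X lowest at 0.217.

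Neighbouring recurrent boundaries lay a median of 630 kb apart over 1680 intervals, with quartiles of 270 and 1780 kb, so the spacing varied widely. The closest neighbours were on chromosome 11 at 106.62 and 106.65 Mb, 30 kb apart. Next were pairs 40 kb apart on chromosome 1 (134.88 and 134.92 Mb), chromosome 3 (28.88 and 28.92 Mb), chromosome 8 (123.15 and 123.19 Mb) and chromosome 15 (58.72 and 58.76 Mb). None of these 5 short intervals was a TAD in any library. On chromosome X the median spacing was 2830 kb, and on chromosomes 17 and 18 it was 405 kb.

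The widest stretches without a recurrent boundary were not empty of boundaries. The longest ran over 19.89 Mb of chromosome X, from 112.19 to 132.08 Mb, and held 23 positions found in 5 to 8 libraries and 310 found in 1 to 4. Chromosome 7 had 3 of the 5 longest, from 52.71 to 69.61 Mb with 25 positions of 5 to 8 libraries, from 36.18 to 52.71 Mb with 16, and from 13.64 to 28.07 Mb with 7. The other was on chromosome 1, from 92.50 to 107.95 Mb, with 23. The 2 first named on chromosome 7 adjoin at the lone recurrent boundary at 52.71 Mb.

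Most intervals between recurrent boundaries were not a recurrent TAD. An interval was counted as 1 TAD in a library when a TAD started within 20 kb of its left end and stopped within 20 kb of its right end. This held in all 10 libraries for 118 intervals and in 9 for 251, together 369 of 1680, while 949 (56.5%) were a single TAD in no library. The share that was 1 TAD in 9 or 10 libraries varied with length and was highest from 0.1 to 0.2 Mb. It was 33.3% of the 45 intervals under 0.1 Mb and 64.6% of the 229 from 0.1 to 0.2 Mb. Beyond that it was 36.4% of the 445 from 0.2 to 0.5 Mb, 11.1% of the 314 from 0.5 to 1 Mb and 3.33% of the 270 from 1 to 2 Mb. None of the 274 intervals from 2 to 5 Mb was 1 TAD in 9 or 10 libraries, and none of the 103 longer ones.

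**Figure D3:**
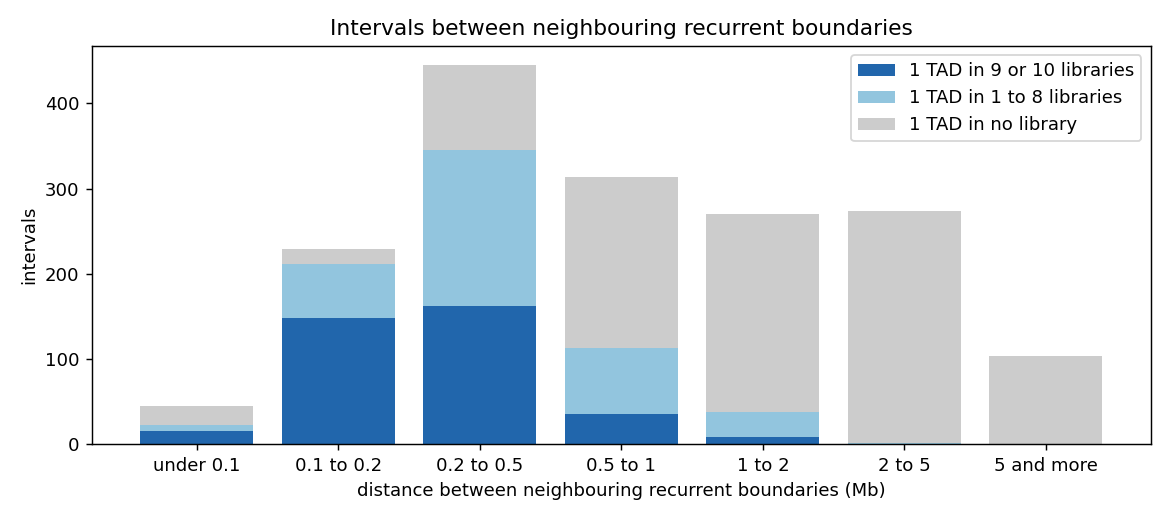
Number of intervals between neighbouring recurrent boundaries (vertical) by their length in Mb (horizontal), divided into those that are 1 TAD in 9 or 10 libraries, in 1 to 8, or in none. From 0.1 to 0.2 Mb, 148 of 229 are 1 TAD in 9 or 10 libraries, and from 2 Mb upward none is.

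The TADs between recurrent boundaries that all 10 libraries listed spanned 80 to 600 kb, with a median of 180 kb. The longest lay on chromosome 10 from 20.08 to 20.68 Mb, with a score of 2.15 ± 0.166 (SD, n = 10 libraries). Those next in length were on chromosome 5 from 118.71 to 119.22 Mb (2.05 ± 0.158), chromosome 13 from 112.55 to 113.06 Mb (1.99 ± 0.182), chromosome 2 from 165.90 to 166.40 Mb (1.99 ± 0.104) and chromosome 6 from 47.12 to 47.61 Mb (3.36 ± 0.427). The shortest, of 80 kb, were on chromosome 11 from 114.94 to 115.02 Mb (1.83 ± 0.155) and chromosome 16 from 17.20 to 17.28 Mb (2.08 ± 0.214). Those of 90 kb were at 133.95 to 134.04 Mb of chromosome 4 and, on chromosome 11, at 48.59 to 48.68 Mb and at 115.49 to 115.58 Mb. Most of the 369 TADs of 9 or 10 libraries stood alone, since 337 had no such TAD next to them. The longest chain was 4 in a row on chromosome 13, from 111.17 to 113.32 Mb, and there were chains of 3 on chromosome 3 from 100.76 to 101.63 Mb and on chromosome 5 from 66.34 to 67.42 Mb.

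Recurrent boundaries more often closed a TAD on one side than joined 2 TADs. In a given library 20.2% to 36.4% of them were at once the end of one TAD and the start of the next. Over all libraries that held them, 187 were always a start without a TAD ending there, 194 were always an end, and 35 were always both. In 477 cases (28.1%) no library listed a TAD on both sides. Of the best scored boundaries, chromosome 13 at 21.93 Mb was a start in all 10 libraries and chromosome 14 at 20.25 Mb an end in all 10. TADs that ran across a recurrent boundary were rare, 3 to 67 per library and 0.0909% to 0.841% of its TADs. This is in part fixed by the choice of members, which have a boundary in nearly every library.

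Scores at the recurrent boundaries were alike in 9 libraries and higher in E2-KO replicate 1. The library medians were 1.782 and 1.80725 for E1-KO, 2.109 and 1.812 for E2-KO, 1.8185 and 1.79975 for E3-KO, 1.816 and 1.88925 for E1&E3-dKO, and 1.759 and 1.815 for WT. Its median over all TADs was also high, at 2.05 against 1.67 to 1.73 in the other libraries, and of the 1300 recurrent boundaries it held, 837 (64.4%) had their highest score there. The part of this library's shorter and more numerous TADs in its scores was not tested.

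By genotype the median log2 score averaged 0.84 ± 0.01 in E1-KO, 0.97 ± 0.15 in E2-KO, 0.86 ± 0.01 in E3-KO, 0.89 ± 0.04 in E1&E3-dKO and 0.84 ± 0.03 in WT (SD, n = 2 each). The 8 knockout libraries exceeded WT by 0.05 on the log2 scale, a 1.04-fold difference (exact permutation over the 45 choices of 2 libraries, two-sided p = 0.311, adjusted p = 0.436 over 7 tests). The smallest p this test can give is 0.0222. The difference was 0.11 within the libraries titled w326 and 0.01 within the others. Whether libraries of 1 genotype lay closer together than other pairings of the 10 libraries was tested on the summed squared difference within pairs, which was 0.0539. It was not past the threshold (exact permutation over all pairings, one-sided p = 0.384, adjusted p = 0.448). Without either E2-KO library the sum was 0.00593, with an unadjusted exact p of 0.534 without replicate 1 and of 0.0476 without replicate 2. Nothing is read from the value of 0.0476, since the high library is then left unpaired in the observed grouping and paired in most of the others.

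**Figure D4:**
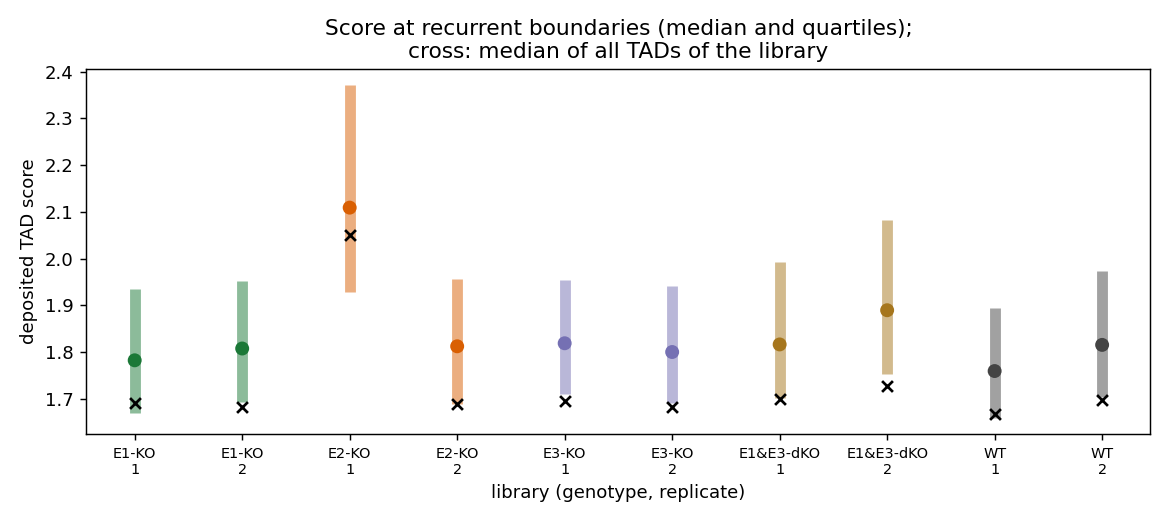
Score at the recurrent boundaries in each library (vertical, deposited score; the axis does not start at 0), with the median as a point, the quartiles as a bar and the median of all TADs of the library as a cross. The median of E2-KO replicate 1 is at 2.109, and the other 9 lie between 1.759 and 1.88925.

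Fewer intervals between recurrent boundaries were 1 TAD in E2-KO replicate 1 than in any other library. Of the 1680 intervals 600 and 559 were 1 TAD in the E1-KO libraries, 266 and 566 for E2-KO, 601 and 517 for E3-KO, 574 and 496 for E1&E3-dKO, and 622 and 579 in WT. The share averaged 31.1% ± 6.54 in the knockouts (n = 8) and 35.7% ± 1.81 in WT (n = 2), a difference of -4.65 percentage points. An interval can be 1 TAD in a library only where the library holds both of its ends, which the selection used, so the shares are a description with no test. The difference was -10.3 points within the w326 titles and -0.774 within the others. Of the 251 TADs listed in 9 libraries, 161 were absent from E2-KO replicate 1.

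Across boundaries of all 10 libraries, the best scored position was the left end of a TAD on chromosome 13 from 21.93 to 22.14 Mb. Its score at 21.93 Mb was 4.042 and 4.058 for E1-KO, 4.069 and 3.617 for E2-KO, 4.079 and 3.804 for E3-KO, 3.399 and 4.622 for E1&E3-dKO, and 3.866 and 4.146 for WT. All genotypes overlap there, and the library with high scores elsewhere does not stand out. The right end at 22.14 Mb averaged 3.54 ± 0.628 (n = 10), and in 6 libraries another TAD began there.

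Both ends of the TAD on chromosome 6 from 47.12 to 47.61 Mb followed, with a median score of 3.37 each. At 47.12 Mb the scores were 3.564 and 3.432 for E1-KO, 2.401 and 3.115 for E2-KO, 3.304 and 3.24 for E3-KO, 4.028 and 3.653 for E1&E3-dKO, and 3.286 and 3.599 for WT. Here E2-KO replicate 1 was the lowest library. No interaction of any library ended at either boundary.

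Other high scores belonged to boundaries where E2-KO replicate 1 was far above the rest. On chromosome 13 the TAD from 65.61 to 65.77 Mb scored 3.113 and 4.005 for E1-KO, 9.556 and 5.936 for E2-KO, 2.753 and 4.253 for E3-KO, 3.129 and 3.592 for E1&E3-dKO, and 2.724 and 2.972 for WT. Both E2-KO libraries were above all others, by amounts that differed between them. At 20.34 Mb of chromosome 12 the score was 16.506 in E2-KO replicate 1 and 2.202 to 4.554 in the other libraries. The rest of the 10 best lay at 15.18 Mb of chromosome 17 (3.18 ± 0.306, SD over 10 libraries), at 20.25 Mb of chromosome 14 (3.06 ± 0.208) and at 21.75 Mb of chromosome 10 (2.90 ± 0.209).

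The lowest scores among boundaries of all 10 libraries were close to the limit of 1.5. They were at chromosome 13, 30.36 Mb (median 1.56), chromosome 7, 117.42 Mb (1.58), chromosome 6, 117.79 Mb (1.59), chromosome 4, 126.22 Mb (1.595) and chromosome 1, 153.65 Mb (1.5975). That every library listed them is part of how they were chosen. The SD of the log2 score over libraries had a median of 0.11 across the recurrent boundaries, and of 0.09 without E2-KO replicate 1.

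Hardly any recurrent boundary was called as different in score between a knockout and WT. With 2 libraries per genotype, a boundary that was not called is not shown to be unchanged. Log2 scores, centred in each library, were fitted with limma for all boundaries with values in enough libraries, and a boundary missing from a library entered without it. At an adjusted p under 0.05, 0 of 1700 were called in E1-KO, 2 in E2-KO, 0 in E3-KO and 1 in E1&E3-dKO. Among all boundaries tested the calls were 0% of 3612 for E1-KO, 0.139% of 3591 for E2-KO, 0% of 3682 for E3-KO and 0.0293% of 3413 for E1&E3-dKO. At an unadjusted p under 0.05 there were 49 recurrent boundaries for E1-KO (2.88%, beside 3.02% of all boundaries tested), 173 for E2-KO (10.2%, beside 10.4%), 47 for E3-KO (2.76%, beside 2.80%) and 105 for E1&E3-dKO (6.18%, beside 5.57%). The recurrent boundaries' shares were thus near those of all boundaries, which include the 1700 themselves, so part of this closeness is built in. The median log2 difference over the 1700 was -0.0080 in E1-KO, 0.0018 in E2-KO, -0.0053 in E3-KO and -0.013 in E1&E3-dKO. Over all boundaries tested it was -0.0062 for E1-KO, 0.017 for E2-KO, -0.0013 for E3-KO and -0.011 for E1&E3-dKO. Each library was centred on its median over the boundaries of all 10 libraries, which are part of the 1700. Medians near 0 are thus largely fixed by the centring and do not show that scores were unshifted. With scores not centred, the median over the 1700 was 0.0042 in E1-KO, 0.104 in E2-KO, 0.015 in E3-KO and 0.046 in E1&E3-dKO. Over all boundaries tested it was then 0.0021, 0.112, 0.017 and 0.048 in this order. The knockouts share the WT libraries, so these comparisons are not independent. All 10 libraries also share 1 estimate of the spread. Without E2-KO replicate 1, more boundaries had an unadjusted limma p under 0.05. They were 75 of the 1700 for E1-KO (171 of all 3612 tested), 77 for E3-KO (171 of 3682) and 163 for E1&E3-dKO (302 of 3413). The calls at an adjusted p under 0.05 stayed at 0, 0 and 1 in this order.

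At each of the 3 called boundaries the scores compared came from TADs on opposite sides. On chromosome 14 at 28.61 Mb the score was 2.48 and 2.546 in E1&E3-dKO, against 1.561 and 1.604 in WT, and the groups did not overlap (log2 difference 0.61 ± 0.06 SE, limma adjusted p = 0.0297). In both E1&E3-dKO libraries the listed TAD lay to the left, from 27.1 to 28.6 or 28.61 Mb, and in both WT libraries it lay to the right, from 28.6 to 29.93 or 29.92 Mb. E1-KO replicate 1 listed a TAD on both sides, the left one with a score of 2.457, and E1-KO replicate 2 did not hold the boundary. Both E3-KO libraries and E2-KO replicate 2 had the right-hand TAD, with scores of 1.592, 1.599 and 1.64, and E2-KO replicate 1 had a shorter one on that side with 1.859. The call was lost with the replicate number or the title prefix as a term and when scores were not centred, as well as without any 1 of the libraries of E1&E3-dKO, WT or E3-KO.

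Both calls in E2-KO rested on replicate 1, since replicate 2 did not hold either boundary. The E2-KO side is thus 1 library, and the errors and p-values below come from the spread within the other genotypes, on the assumption that this library varies alike. On chromosome 6 at 114.44 Mb the score was 7.649 in E2-KO replicate 1, against 1.846 and 1.875 in WT (log2 difference 1.81 ± 0.09 SE, limma adjusted p = 2.84e-04). Its TAD ran to the right, from 114.43 to 114.6 Mb, whereas both WT libraries had a TAD that ended there. On chromosome 6 at 130.52 Mb the score was 5.326 in E2-KO replicate 1, against 2.591 and 2.49 in WT (0.84 ± 0.09 SE, adjusted p = 0.0179), and again the TAD was on the other side, from 130.5 to 130.98 Mb, against 130.32 to 130.52 Mb in WT. Leaving out any 1 library of E1&E3-dKO or WT left 1 call. Leaving out either E2-KO library leaves 1 library in that genotype, so only the size of the difference is given. The median log2 difference over the recurrent boundaries was -0.010 without replicate 1 and 0.0078 without replicate 2. Over all boundaries tested it was -0.0019 and 0.044.

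The interaction lists took no part in choosing the boundaries, although they come from the same libraries as the TADs. Pairs of bins ended at recurrent boundaries more often than at rarer ones. A pair end was counted at a boundary when the middle of its bin lay within 20 kb. Per 1000 boundaries there were 258 and 39.4 such ends in E1-KO, 139 and 64.1 for E2-KO, 74.7 and 55.3 for E3-KO, 42.9 and 222 for E1&E3-dKO, and 144 and 15.9 in WT. Boundaries of 1 to 4 libraries had 21.7 and 12.4 for E1-KO, 100.4 and 25.9 for E2-KO, 20.4 and 41.9 for E3-KO, 25.6 and 182 for E1&E3-dKO, and 33.3 and 14 for WT. The recurrent boundaries were ahead in 10 of 10 libraries, by 1.27 ± 1.07 on the log2 scale (SD, n = 10), a 2.41-fold difference (permutation test flipping signs of the libraries, two-sided p = 0.00195, the smallest it can give, adjusted p = 0.0137). The ratio ranged from 1.16 in WT replicate 2 to 11.9 in E1-KO replicate 1.

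A library holds nearly all recurrent boundaries but only some of the rare ones, so the comparison was repeated with the boundaries that each library itself listed. The difference was then 0.87 on the log2 scale, a 1.83-fold difference (permutation p = 0.00195). The recurrent boundaries were ahead in 9 libraries, and in WT replicate 2 the ratio was 1.00, with 16.3 ends per 1000 boundaries on either side. Against boundaries of 5 to 8 libraries it was 1.35-fold and above 0 in 8 of 10 (permutation p = 0.0195). Both comparisons were added after the data were seen.

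The excess was in the short pairs. Among pairs under 2 Mb the recurrent boundaries were ahead of those in 1 to 4 libraries by 6.77-fold (permutation p = 0.00195), and among pairs of 2 Mb and more by 1.09-fold (permutation p = 0.0918). This split by distance was not a planned test, and its p-values are unadjusted. By distance from the boundary, ends of pairs under 2 Mb in the bins within 20 kb exceeded those 100 to 200 kb away by 1.43-fold to 4.63-fold over the 10 libraries, with the highest values in E3-KO replicate 1 (4.63), WT replicate 1 (4.60) and E1-KO replicate 1 (4.08). For pairs of 2 Mb and more the same ratio was between 0.722 and 1.33. The lowest ratio for short pairs, 1.43, was in WT replicate 2, which listed 43 pairs under 2 Mb and none shorter than 90 kb.

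**Figure D5:**
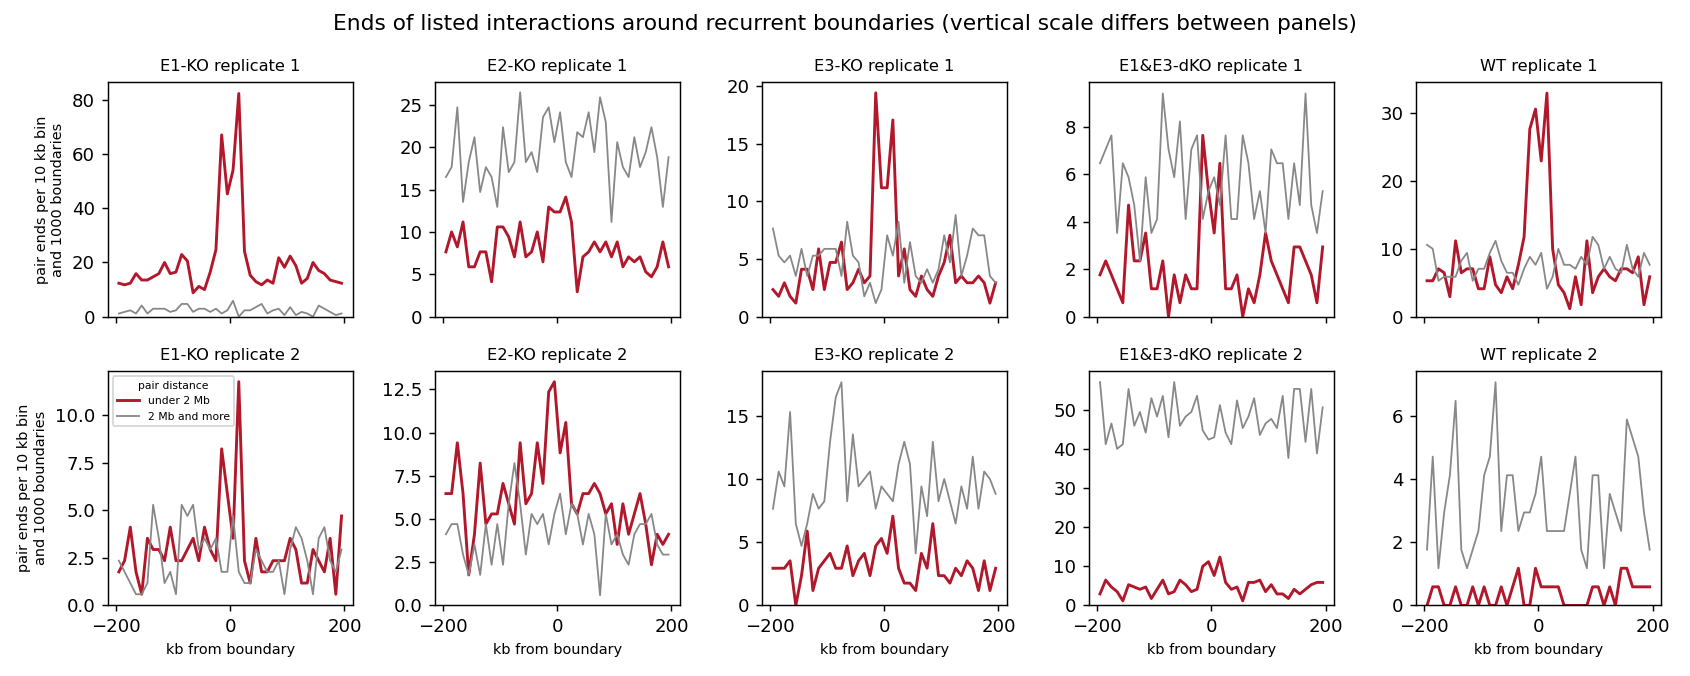
Ends of listed interactions per 10 kb bin and 1000 recurrent boundaries (vertical, a separate scale in each panel) by distance from the boundary in kb (horizontal), for pairs under 2 Mb in red and pairs of 2 Mb and more in grey. Within 20 kb of the boundary the short pairs stand at 4.08-fold the level 100 to 200 kb away in E1-KO replicate 1 and at 1.43-fold in WT replicate 2, and the long pairs at 0.722-fold to 1.33-fold over the 10 libraries.

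The share of a library's interactions that ended at a recurrent boundary varied widely among short pairs and little among long ones. Among pairs under 2 Mb it was 40.4% and 20.3% for E1-KO, 8.09% and 12.3% for E2-KO, 31.1% and 11.1% for E3-KO, 25.9% and 17.0% for E1&E3-dKO, and 38.1% and 6.98% for WT. The extremes were 318 of 787 pairs in E1-KO replicate 1 (95% exact binomial interval 37.0% to 43.9%) and 3 of 43 in WT replicate 2 (1.46% to 19.1%), and these intervals cover counting error only. Among pairs of 2 Mb and more it was between 4.51% and 6.12% in every library. Over all pairs it averaged 11.2% ± 8.47 in the knockouts (n = 8) and 10.1% ± 6.33 in WT (n = 2), a difference of 1.10 percentage points (exact permutation, two-sided p = 0.844, adjusted p = 0.844). The direction was not stable, with -7.33 points within the w326 titles and 7.95 within the others, -1.78 without E1-KO replicate 1 and -3.38 without WT replicate 2.

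Interactions that joined 2 recurrent boundaries mostly joined neighbours. Over all libraries 138 combinations of 2 such boundaries were joined by at least 1 pair, 48 of them in at least 2 libraries. Of the 138, 126 were neighbours, and 106 of these bounded an interval that was 1 TAD in 9 or 10 libraries. Of all 369 intervals of that kind 106 were thus joined end to end, against 1 of the 949 intervals that were a TAD in no library. The lengths of these intervals differ, with a median of 180 kb for those that were 1 TAD in all 10 libraries, 240 kb in 9 and 1480 kb in none, and the part of length in this contrast was not tested. Pairs that joined 2 recurrent boundaries came unevenly from the libraries. E1-KO replicate 1 listed 105, all between neighbours, and WT replicate 1 listed 60, of which 58 were between neighbours. The lowest shares of neighbours were in E1&E3-dKO replicate 2, with 12 of 19 pairs, and in E2-KO replicate 1, with 11 of 16. WT replicate 2 listed 1 such pair.

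The combination found in most libraries was the TAD on chromosome 13 from 65.61 to 65.77 Mb, whose ends were joined in 9 libraries. The pair with most reads had 28 and 24 reads in E1-KO, 30 and 34 for E2-KO, 16 and 19 for E3-KO, 12 and 10 for E1&E3-dKO, and 17 in WT replicate 1, and it was not listed in WT replicate 2. Next was chromosome 13 from 23.51 to 23.62 Mb, joined in 8 libraries with 7 to 38 reads and absent from E2-KO replicate 2 and WT replicate 2. On chromosome 8 the ends at 87.22 and 87.35 Mb were joined in 6 libraries with 13 to 22 reads. On chromosome 10 those at 117.64 and 117.74 Mb were joined in 5, both WT libraries among them, with 14 to 17 reads.

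Of the 10 leading combinations, 1 was not of neighbours. It linked 23.12 and 50.59 Mb of chromosome 6, 27.47 Mb apart with 15 recurrent boundaries between them, in 5 libraries with 3 to 9 reads. The others were chromosome 11 from 48.59 to 48.68 Mb and chromosome 6 from 125.36 to 125.56 Mb, in 4 libraries each. Those of chromosome 1 from 183.81 to 184.06 Mb, chromosome 17 from 66.57 to 66.85 Mb and chromosome 4 from 133.21 to 133.39 Mb were in 3 each. Reads of a pair are not scaled to depth, so they are not compared between libraries.

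Pair ends were concentrated on part of the boundaries. At least 1 library had an end at 837 of the 1700 (49.2%), 31 had ends in at least 5 libraries, and 863 had none. The most frequent were 130.52 Mb of chromosome 6 and 19.69 Mb of chromosome 8, with ends in all 10 libraries and 31 and 16 ends in sum. Ends in 9 libraries were found at 65.61 Mb of chromosome 13 (31 ends), 23.12 Mb of chromosome 6 (23 ends) and 65.77 Mb of chromosome 13 (21 ends). Their median scores differed widely, at 2.32, 2.43, 3.36, 1.82 and 3.36 in this order.

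Short interactions crossed recurrent boundaries less often than rare ones. A boundary was crossed when it lay more than 20 kb inside both bins of a pair, and pairs from 50 kb to 2 Mb were used. Crossings per 1000 recurrent boundaries were 14.7 and 13.5 for E1-KO, 66.5 and 37.6 for E2-KO, 6.47 and 16.5 for E3-KO, 4.12 and 38.8 for E1&E3-dKO, and 5.29 and 1.18 for WT. For boundaries of 1 to 4 libraries they were 25.1 and 14.2 for E1-KO, 77.2 and 37.0 for E2-KO, 12.7 and 21.4 for E3-KO, 7.67 and 52.4 for E1&E3-dKO, and 17.5 and 4.09 for WT. The recurrent boundaries were lower in 9 of 10 libraries, the exception being E2-KO replicate 2 (1.03-fold), with a mean log2 ratio of -0.66 ± 0.575 (SD, n = 10), or 0.633-fold (permutation test flipping signs, two-sided p = 0.00391, adjusted p = 0.0137). Without chromosomes 7, 12, 13 and 14 it was 0.325-fold. With boundaries of all 10 libraries alone it was 0.836-fold and not past the threshold (permutation p = 0.230).

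Against boundaries of 5 to 8 libraries, the crossings of recurrent ones were lower in 10 of 10 libraries, at 0.432-fold (permutation p = 0.00195). Crossing did not fall steadily with recurrence. The median over libraries was 24.6 crossings per 1000 for boundaries of 5 to 8 libraries, 19.5 for those of 1 to 4 and 14.1 for recurrent ones. Only in E1&E3-dKO replicate 2 were boundaries of 5 to 8 libraries crossed less than those of 1 to 4 (48.8 against 52.4). With the boundaries each library itself listed, the ratio to those of 1 to 4 libraries was 0.585-fold, with the recurrent ones higher in 2 libraries, E2-KO replicate 1 and E3-KO replicate 2 (permutation p = 0.0117). Both of these settings were added after the data were seen.

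Both WT libraries had the lowest rates of crossing, and the difference from the knockouts did not pass the threshold. Pairs from 50 kb to 2 Mb crossed 0.144 and 0.217 recurrent boundaries per Mb spanned in E1-KO, 0.216 and 0.238 for E2-KO, 0.133 and 0.196 for E3-KO, 0.127 and 0.350 for E1&E3-dKO, and 0.0764 and 0.0675 in WT. The groups did not overlap. The rate averaged 0.203 ± 0.0728 in the knockouts (n = 8) and 0.0719 ± 0.00628 in WT (n = 2), a difference of 0.131 per Mb (exact permutation, two-sided p = 0.0889, adjusted p = 0.207). It was 0.140 within the w326 titles and 0.127 within the others. The unadjusted p was 0.0222 with boundaries of all 10 libraries and with merging within 10 kb, and 0.0444 with interactions at an adjusted p of at most 0.001, and it was 0.156 with pairs under 1 Mb. Without E1&E3-dKO replicate 2 the difference was 0.110 with an unadjusted exact p of 0.0278. The knockout rates rest on 7 to 113 crossings and the WT rates on 9 and 2, of 336 and 43 pairs. The 95% exact Poisson interval of the rate was 0.0349 to 0.145 per Mb for WT replicate 1, below the rates of 5 of the 8 knockout libraries, and 0.00817 to 0.244 per Mb for WT replicate 2, below the rate of 1. The knockout rates have counting error too. The intervals of E1-KO replicate 2 (from 0.138) and E3-KO replicate 2 (from 0.130) overlapped that of WT replicate 1. Those of both E2-KO libraries (from 0.178 and 0.184) and of E1&E3-dKO replicate 2 (from 0.270) did not. These intervals cover counting error only and take crossings as independent. A pair can cross several boundaries, with 9 crossings from 7 pairs in WT replicate 1 and 113 from 78 in E2-KO replicate 1, so they may be too narrow. The median length of these pairs was 150 to 380 kb in the knockouts and 210 and 630 kb in WT, and its part in the rate was not tested.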

How the data were processed

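Each of 10 libraries had a deposited TAD list and a deposited interaction list, both used as the authors made them. Per the submitters' processing notes, HiC-Pro 2.10.0, HOMER and mm9 were used; their roles, and the caller of the interactions, are not given in the sources used here. The TAD score is the authors' deposited value, of at least 1.5, with no stated scale between libraries. The interaction list gives the authors' count of reads per pair of 10 kb bins, unscaled, the authors' deposited p-value, their adjusted p-value (never over 0.01), and a bias ratio per bin from the authors, which was not used. Replicates were not pooled, and pairs listed in both orientations were used once. TAD starts and ends were set to the nearest 10 kb line.

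Scores were tested with limma 3.58.1 (R 4.3.3) with Benjamini-Hochberg adjustment; a boundary entered when both libraries of at least 2 genotypes held it. Library values were tested by exact permutation with scipy 1.17.1, with 0.5 added to counts in ratios, and 7 tests were adjusted together, of which that on intervals is not reported because it rests on what the selection used. The scripts were tested on simulated data. The replicate numbers were not treated as pairs. Deviations of same-numbered libraries correlated between -0.273 and 0.231, without a common sign, which does not settle whether the numbers pair the samples. The named regions are the highest, lowest, longest, shortest and most recurrent by rule; the chromosomes with the next densities, the chains of TADs and the boundaries with the most exact positions were picked after their values were seen. The boundaries and tests were chosen with earlier results of these data known.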

Additional observations from a re-analysis of the deposited data

Results flagged for a closer look

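Of 37 groups of 9 or 10 library values, 17 held 1 library that stood far from the rest by Dixon's test at its 95% level. Most groups were boundaries or TADs named by rule, many for high or low scores, so no rate expected by chance applies. In 14 of the 17 the library that stood apart was E2-KO replicate 1, and the boundaries and TADs are not independent groups. Scores were not centred here. The median score of E2-KO replicate 1 at recurrent boundaries was 2.109, against 1.759 to 1.88925 in the other 9 libraries, so many of these groups restate that shift. No difference between these libraries other than those given in the report was tested.

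In E2-KO replicate 1 the median log2 score at recurrent boundaries was 1.08, and the nearest library had 0.92. In E1-KO replicate 1 the share of interactions that ended at a recurrent boundary was 31.3%, and the nearest library had 14.5%.

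Scores of single boundaries and TADs stood apart in E2-KO replicate 1 as well. The TAD on chromosome 13 from 65.61 to 65.77 Mb, with both of its ends, scored 9.556 there and 5.936 in the nearest library. The TAD on chromosome 12 from 19.97 to 20.34 Mb, with its right end, scored 16.506 there and 4.554 in the nearest. Among the boundaries with most interaction ends, the scores were 5.326 at 130.52 Mb of chromosome 6, 3.7775 at 19.69 Mb of chromosome 8 and 2.66 at 23.12 Mb of chromosome 6. Among the lowest scored boundaries, E2-KO replicate 1 had 2.04 at 117.42 Mb of chromosome 7, 1.938 at 117.79 Mb of chromosome 6 and 1.924 at 153.65 Mb of chromosome 1. These values lie below the median of that library, 2.109. E2-KO replicate 1 also had 2.411 for the TAD from 118.71 to 119.22 Mb of chromosome 5 and 2.461 for that from 112.55 to 113.06 Mb of chromosome 13. Another library was the extreme at 126.22 Mb of chromosome 4, where E2-KO replicate 2 scored 1.744. The TAD from 48.59 to 48.68 Mb of chromosome 11 scored 3.663 in E1&E3-dKO replicate 2 and 2.882 in the nearest library.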

How the results depend on the processing

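Of 87 settings other than leaving out a library, 70 kept the direction and the side of the threshold, or stayed within 1.5 times of a count. The causes of the changes below were not tested. The 1700 boundaries became 838 when all 10 libraries were required and 1045 when each library gave equally many of its best TADs. With boundaries of all 10 libraries, the log2 ratio of crossings was -0.26 (permutation p = 0.230) and the crossing rate in knockouts minus WT was 0.0815 per Mb (exact p = 0.0222). That rate was 0.110 with merging within 10 kb (exact p = 0.0222), 0.0995 with interactions at an adjusted p of at most 0.001 (exact p = 0.0444), and 0.110 to 0.142 leaving out each library. The log2 ratio of pair ends was 0.13 for pairs of 2 Mb and more. The share of interactions at a recurrent boundary in knockouts minus WT was -0.438 points with ends within 10 kb, -7.33 within the w326 titles, and -3.38 to 5.57 leaving out each library. The summed squared score difference within genotypes was 0.00593 to 0.0537 leaving out each library. Calls by limma in E2-KO numbered 0 with boundaries of all 10 libraries, 1 with merging within 10 kb or the title prefix as a term, 6 with scores not centred, and 0 to 184 leaving out each library. In E1&E3-dKO there were 0 with scores not centred, with the title prefix as a term and with the replicate number as a block. Leaving out a library of another knockout gave 0 or 1. Each recurrent boundary called in the main setting was in 9 libraries. Counting only boundaries of all 10 libraries thus gave 0 calls in both genotypes by construction. With the replicate block the score difference was 0.05, the interval share -4.65 points, the interaction share 1.10 points and the crossing rate 0.131 per Mb (exact p = 0.36 for the score, 0.84 for the interaction share and 0.08 for the crossing rate), and 2 boundaries were called in E2-KO. The replicate numbers were not treated as pairs in the main settings, and with the block no call other than that in E1&E3-dKO moved. Interaction lists of 466 to 6014 pairs limit every value drawn from them, and total reads are unknown.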
